A study of Mus musculus with 5 samples.

Results

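Salivary stem and progenitor markers were examined as a set of 8 genes (Sox9, Kit, Cd24a, Cd44, Cd164, Hmga2, Nt5e and Alcam) out of the 30406 genes present in both gene lists of the data. The genes were listed by name and not by a measured value, and all 8 were found in every gene list. For each gene the level, the share of positive barcodes and the co-detection with the other 7 genes were measured in 5 single-cell RNA-seq libraries. Values were taken over barcodes in which Malat1, a transcript retained in the nucleus, held at least 1% of the unique molecular identifiers (UMIs, counted molecules). This left 995, 1469, 1307, 9371 and 155 barcodes of the 6494, 15610, 15325, 9484 and 1402 that passed the other filters, in the order control, photon, proton, 11-day and fresh tissue.

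The 5 libraries came from the submandibular salivary gland of C57BL/6 mice, with no allele named in the labels, and each group was 1 library. The control was non-irradiated salivary gland organoids (mSGOs) collected on day 7, and the photon and proton libraries were 7-day mSGOs that had been given 7 Gy of photons or of plateau protons on day 5. The remaining libraries were non-irradiated 11-day mSGOs and cells isolated directly from the gland, called fresh tissue. The labels give an age of 8 to 12 weeks for all but the 11-day mSGOs, and the study's methods give the same age for its mice and name only females. mSGOs were derived from 4 animals and grown in Matrigel, a basement membrane gel, in a medium with EGF, FGF2, insulin, dexamethasone, a ROCK inhibitor, R-spondin1 and Wnt3a, so the controls carried these agents too. In every library 45000 cells that had excluded propidium iodide were sorted and loaded. Another batch of animals gave the 11-day mSGOs, which were handled on another day. Their counts carry software version 7.0.0 and a list of 32285 genes, against 3.0.1 and 31053 genes for the 7-day and tissue libraries. Day of culture, animals, run and counting software therefore cannot be told apart. With 1 library per group, no difference was tested, and all intervals are 95% intervals for counting error alone. They leave out variation between animals, cultures and preparations.

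Ducts of the salivary gland hold basal and luminal epithelial cells, and cells with stem or progenitor properties have been described mainly in these ducts. Such cells are usually isolated with antibodies to surface proteins, among them the receptor KIT and the glycoproteins CD24 and CD44, whereas SOX9 and HMGA2 act in the nucleus and are associated with developing and regenerating epithelium. None of these proteins marks stem cells alone. KIT, for example, is also found on mast cells and melanocytes, and CD24, CD44 and ALCAM on many epithelial and blood cells.

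The barcodes used held 6291834, 7991177, 7848226, 31911392 and 773321 UMIs in the order given above, with medians of 5744, 4462, 5376, 3048 and 4205 UMIs per barcode. Epithelial markers were found with at least 2 UMIs in 99.1% to 100% of mSGO barcodes and in 28.4% of fresh tissue barcodes. In fresh tissue, immune markers were found in 47.1% and endothelial markers in 40.6% of barcodes, and acinar secretory transcripts in 100%, led by Mucl2 with 18.9% of all UMIs. Most fresh tissue barcodes thus carried markers of lineages other than epithelium. Ribosomal protein genes took 32.1%, 29.7%, 28.7%, 17.8% and 9.21% of UMIs. Between 12 and 14 barcode sequences of each 7-day library and 4 of the tissue library also occurred in another library of the same run, and leaving them out changed none of the calls on levels given here. Levels are given in CPM, which is the UMIs of a gene divided by all UMIs of the library and scaled to the same total in each. They were summed over barcodes, so fewer expressing cells and less RNA per cell cannot be told apart from a level by itself.

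**Figure D1:**
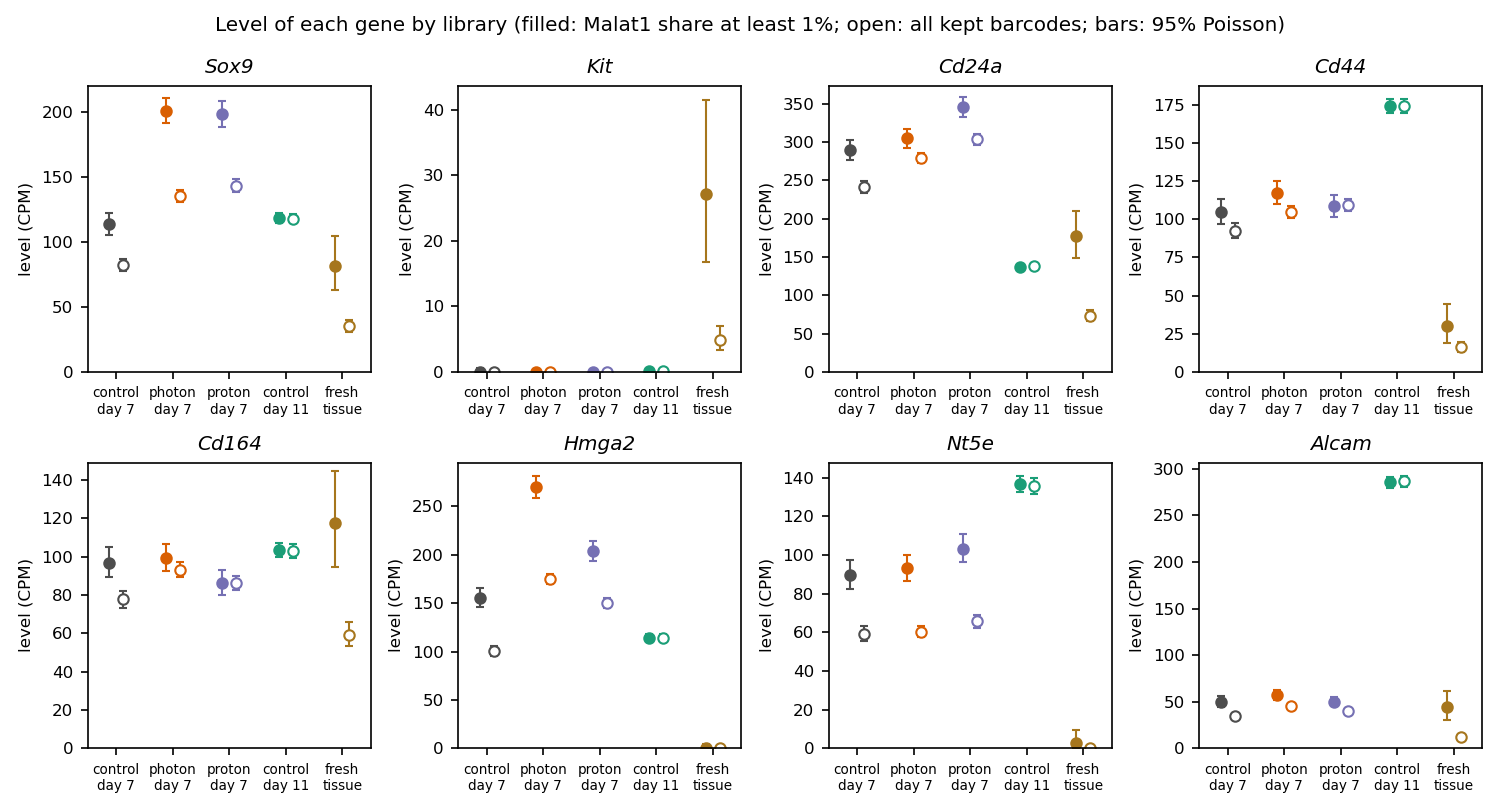
Level of each of the 8 genes by library in CPM on a linear axis (filled points, barcodes at or above the 1% Malat1 limit, open points, all kept barcodes, bars, 95% Poisson intervals). Sox9 and Hmga2 were highest in the photon library at 201 and 270 CPM, Alcam was highest in 11-day mSGOs at 286 CPM, and Kit was above 1 CPM in fresh tissue only.

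Sox9 (ENSMUSG00000000567, GRCm39 chr11:112673009-112678586, plus strand) encodes a transcription factor of duct and progenitor cells in several glands. Its level was 114 CPM (interval 106 to 123) in control mSGOs, 201 (191 to 211) after photons, 198 (188 to 208) after protons, 118 (115 to 122) in 11-day mSGOs and 81.5 (62.6 to 104) in fresh tissue. Both irradiated libraries stood above the other 3, with intervals that overlapped each other but not those of the rest. Control and 11-day mSGOs overlapped, and fresh tissue was the lowest, resting on 63 UMIs in 18 barcodes.

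Hmga2 (ENSMUSG00000056758, GRCm39 chr10:120197173-120313095, minus strand) encodes a chromatin protein of embryonic and proliferating cells. Its level was 155 CPM (146 to 165) in control mSGOs, 270 (258 to 281) after photons, 204 (194 to 214) after protons, 114 (111 to 118) in 11-day mSGOs and 0 in fresh tissue, where the floor of 3 counts used for every count of 0 is 3.88 CPM. No neighbouring libraries overlapped, so the order was photon, proton, control, 11-day and fresh tissue. The 250 bases before its annotated start (RefSeq, GRCm38.p6, chr10:120476470-120476719, minus strand) are shown because the gene was the one member read in every mSGO library and in no fresh tissue barcode. Capitals mark the GC box (GGGCGG on either strand), which was found once, at position -133 from the start, and which 32.7% of 32851 promoter windows of that length held.
Hmga2 promoter: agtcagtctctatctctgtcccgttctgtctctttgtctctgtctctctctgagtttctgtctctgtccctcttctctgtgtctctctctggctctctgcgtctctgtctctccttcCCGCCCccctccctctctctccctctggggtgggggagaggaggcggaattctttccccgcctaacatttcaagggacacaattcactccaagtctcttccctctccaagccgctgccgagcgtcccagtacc

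Kit (ENSMUSG00000005672, GRCm39 chr5:75735576-75817404, plus strand) encodes the receptor for stem cell factor. It had 0 UMIs in the control, photon and proton libraries (floors of 3 counts at 0.477, 0.376 and 0.383 CPM), 2 UMIs in 1 of 9371 barcodes in 11-day mSGOs (0.063 CPM, 0.00763 to 0.228), and 21 UMIs in 7 barcodes of fresh tissue (27.2 CPM, 16.8 to 41.5). Kit was thus read above the floor in fresh tissue only. Against a floor of 3 counts in the control library, its fresh tissue level was at least 56.9-fold higher. Of its 7 barcodes in fresh tissue, 4 also held a Sox9 UMI and 5 held at least 34 UMIs of epithelial markers, and 1 barcode held 9 of the 21 Kit UMIs. All 6 mast cell markers examined were at 0 in fresh tissue. The 250 bases before the first of its annotated starts (RefSeq, GRCm38.p6, chr5:75574737-75574986, plus strand) are shown beside those of Hmga2 as the reverse case. They held 70.8% G and C against 56.4% for Hmga2 and a median of 52.4% over all windows, and 1 GC box in capitals at -98.
Kit promoter: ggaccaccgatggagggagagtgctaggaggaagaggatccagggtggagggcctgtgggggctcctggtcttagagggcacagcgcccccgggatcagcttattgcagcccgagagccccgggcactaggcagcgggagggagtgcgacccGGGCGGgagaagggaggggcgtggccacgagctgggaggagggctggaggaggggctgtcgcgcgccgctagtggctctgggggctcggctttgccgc

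Cd24a (ENSMUSG00000047139, GRCm39 chr10:43454280-43460264, plus strand) encodes a small glycoprotein anchored to the outer membrane by lipid. Its level was 289 CPM (276 to 303) in control mSGOs, 305 (293 to 317) after photons, 345 (332 to 359) after protons, 137 (133 to 141) in 11-day mSGOs and 177 (149 to 210) in fresh tissue. The 3 seven-day libraries lay above the other libraries, and protons above photons and control, which overlapped. Processed copies of Cd24a lie elsewhere in the mouse genome, and how reads that match several copies were counted was not given in the sources used here.

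Cd44 (ENSMUSG00000005087, GRCm39 chr2:102641486-102732010, minus strand) encodes the main cell surface receptor for hyaluronan. It stood at 105 CPM (97.1 to 113) in control mSGOs, 117 (110 to 125) after photons, 109 (101 to 116) after protons, 174 (170 to 179) in 11-day mSGOs and 29.8 (18.9 to 44.7) in fresh tissue. The 11-day library was highest and fresh tissue lowest, and neighbours among the 7-day libraries overlapped.

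Cd164 (ENSMUSG00000019818, GRCm39 chr10:41395203-41408322, plus strand) encodes a sialomucin first described on blood progenitors. Its level was 96.9 CPM (89.3 to 105) in control mSGOs, 99.3 (92.5 to 106) after photons, 86.5 (80.1 to 93.2) after protons, 104 (100 to 107) in 11-day mSGOs and 118 (94.8 to 145) in fresh tissue. Ranked by level, the libraries ran from fresh tissue through 11-day, photon and control to proton, and each overlapped the next in this ranking. Cd164 was the member whose level varied least over the 5 libraries.

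Nt5e (ENSMUSG00000032420, GRCm39 chr9:88209089-88254146, plus strand) encodes CD73, the ectoenzyme that makes adenosine from AMP. It stood at 89.6 CPM (82.3 to 97.3) in control mSGOs, 93.2 (86.6 to 100) after photons, 103 (96.3 to 111) after protons, 137 (133 to 141) in 11-day mSGOs and 2.59 (0.313 to 9.35) in fresh tissue. The 7-day neighbours overlapped, 11-day mSGOs were above them, and the fresh tissue value rested on 2 UMIs.

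Alcam (ENSMUSG00000022636, GRCm39 chr16:52069359-52274437, minus strand) encodes CD166, a cell adhesion molecule. It stood at 50.1 CPM (44.7 to 56.0) in control mSGOs, 57.5 (52.3 to 63.0) after photons, 50.1 (45.3 to 55.3) after protons, 286 (280 to 292) in 11-day mSGOs and 44.0 (30.5 to 61.5) in fresh tissue. The 11-day library alone stood apart, and the other 4 overlapped from neighbour to neighbour. The window before its start (RefSeq, GRCm38.p6, chr16:52453082-52453331, minus strand, 69.2% G and C) is shown because Alcam had the widest range of levels over the mSGO libraries among the members detected in all of them. Capitals mark 2 GC boxes, at -159 and -10, and 1 CCAAT box at -201, a motif held on either strand by 33.8% of all windows.
Alcam promoter: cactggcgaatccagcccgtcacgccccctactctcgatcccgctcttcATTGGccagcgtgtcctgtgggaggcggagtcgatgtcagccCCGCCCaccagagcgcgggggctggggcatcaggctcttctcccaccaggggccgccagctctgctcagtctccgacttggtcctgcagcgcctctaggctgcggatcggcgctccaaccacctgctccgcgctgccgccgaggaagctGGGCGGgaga

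Promoter entries matched 6 of the 8 genes. The TATA box (TATAAA) and the AP-1 site (TGANTCA), searched on both strands, were in none of these 6 windows and in 12.4% and 6.75% of all windows. A motif match here is a run of letters and not a bound site.

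To ask how the markers differed 2 days after irradiation, each irradiated library was set against the control, which both comparisons share. Sox9 was higher after both beams, by 0.81 (0.69 to 0.95) on the log2 scale after photons and by 0.79 (0.67 to 0.93) after protons. Hmga2 was higher by 0.79 (0.69 to 0.91) after photons and by 0.39 (0.28 to 0.51) after protons, the latter short of 1.5-fold. A gene was counted as past the threshold at 1.5-fold or more with a counting interval that left out equal levels. By this rule 2 of the 7 members with enough UMIs (Sox9 and Hmga2) were past it upward after photons, where 4.8% of 8952 genes were, and none downward, where 2.37% were. After protons 1 member (Sox9) was past it upward against 3.48% of genes and none downward against 3.26%. The ratio for Sox9 stood at percentile 97.9 and that for Hmga2 at 97.8 of all genes after photons, and the median ratio of all genes was 0.05 after photons and 0.02 after protons.

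The other 5 members with enough UMIs differed from the control by at most 0.26 on the log2 scale. Cd24a differed by 0.08 after photons and 0.26 after protons, Cd44 by 0.16 and 0.05, Nt5e by 0.06 and 0.20, and Alcam by 0.19 and 0.00. Cd164 stood at 0.04 after photons and -0.16 (-0.32 to -0.00) after protons. Kit had no UMI in any of the 3 seven-day libraries.

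Set directly against each other, the irradiated libraries differed in no member by 1.5-fold, where 0.897% of 9139 genes were higher and 2.22% lower after protons. Hmga2 was lower after protons by 0.40 on the log2 scale (ratio -0.40, -0.50 to -0.31), Cd24a was higher (0.18), and Sox9 stood at -0.02. Cycling markers summed to 410, 217 and 239 CPM in the control, photon and proton libraries, and Malat1 with Neat1 held 5.39%, 7.02% and 7.82% of their UMIs. The part of the cycling markers and of the Malat1 share in the Sox9 and Hmga2 ratios was not tested. Over 16 settings, which included all kept barcodes and a Malat1 limit of 2%, the Sox9 ratio for photons lay between 0.71 and 1.03 and that for protons between 0.74 and 1.02. For Hmga2 the photon ratio lay between 0.74 and 1.03 and the proton ratio between 0.32 and 0.57.

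**Figure D2:**
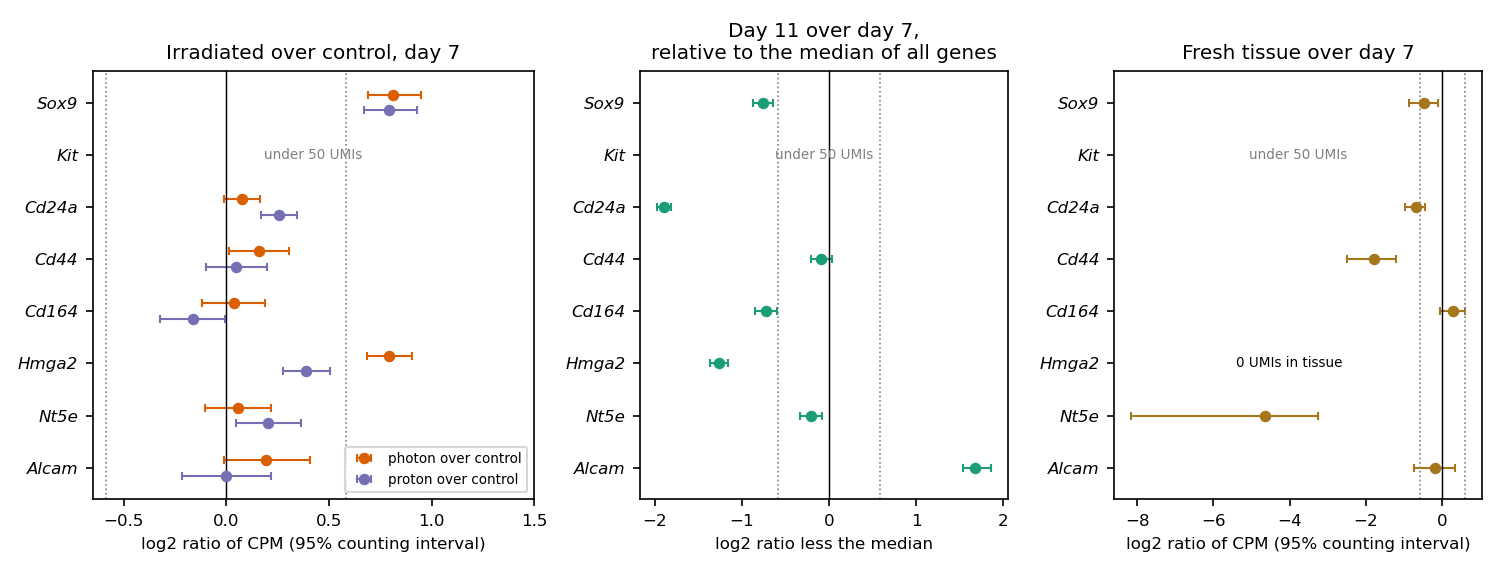
Log2 ratio of CPM for each gene with its 95% counting interval (left, both irradiated libraries over the control, middle, 11-day over 7-day mSGOs less the median of all genes, right, fresh tissue over 7-day mSGOs, dotted lines, 1.5-fold). Sox9 lay at 0.81 and 0.79 after photons and protons, and Hmga2 at 0.79 and 0.39.

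The level of a gene can differ because more barcodes hold it or because each holds more of it, and detection depends on depth. Barcodes were therefore thinned to 1000 UMIs, which left out 38, 66, 31, 135 and 1 shallower barcodes and kept 957, 1403, 1276, 9236 and 154. At this depth Sox9 was found in 8.78% (7.06 to 10.8) of control barcodes, 15.2% (13.3 to 17.2) after photons, 16.4% (14.4 to 18.5) after protons, 11.2% (10.6 to 11.9) in 11-day mSGOs and 1.30% (0.158 to 4.61) in fresh tissue. Without thinning the Sox9 shares were 38.9%, 45.2%, 49.9%, 28.2% and 11.7%. Hmga2 was found in 13.0% (10.9 to 15.3) of thinned control barcodes, 20.2% (18.2 to 22.4) after photons, 18.4% (16.3 to 20.7) after protons, 9.22% (8.64 to 9.83) in 11-day mSGOs and 0 of 154 in fresh tissue, which allows a share of up to 1.95% at the floor of 3 counts. Without thinning the Hmga2 shares were 37.6%, 50.3%, 48.4%, 25.5% and 0%. For Sox9 and Hmga2, and for no other member, the intervals of both irradiated libraries lay above that of the control. The share of all genes with such a separation is not given, so this count has no background to be read against. At 500 UMIs per barcode the intervals of neither Sox9 nor Hmga2 were separate in this way, and at 2000 UMIs only those of Sox9 were. At 5000 UMIs both were, with Sox9 in 36.9%, 53.4% and 52.0% and Hmga2 in 36.7%, 53.5% and 46.0% of the control, photon and proton barcodes. Over all kept barcodes, without the Malat1 limit, those of Cd24a were separate too.

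Cd24a was found in 21.5%, 23.7%, 27.0%, 11.1% and 13.0% of thinned barcodes and in 67.9%, 61.4%, 69.4%, 30.5% and 34.4% without thinning. Cd44 was found in 10.3%, 11.7%, 10.3%, 14.8% and 1.30%, and Nt5e in 8.99%, 9.55%, 9.33%, 12.3% and 0.649%. Alcam was found in 4.70%, 5.77%, 3.92%, 21.5% and 2.60%, so 11-day mSGOs stood apart in the share of Alcam-positive barcodes as they did in its level. Without thinning the Alcam shares were 23.2%, 22.8%, 20.2%, 48.7% and 11.0%. Cd164 was found in 9.40%, 10.8%, 5.33%, 9.89% and 9.74%, but the low proton value belonged to the single draw of UMIs: the share expected over all possible draws was 9.17%, 9.26%, 8.04% and 9.68% in the 4 mSGO libraries. For Sox9 the shares over all draws were 10.1%, 15.2%, 15.5% and 10.8%, and for Hmga2 12.6%, 20.8%, 17.2% and 9.57%. In fresh tissue the single draw was low for Sox9, whose share over all draws was 4.63% against 1.30%, and the same held for Cd44 (2.16% against 1.30%) and Kit (1.67% against 0.649%). Kit was found in none of the thinned mSGO barcodes, which at the same floor allows shares of up to 0.313%, 0.214%, 0.235% and 0.0325%, and in 1 of 154 fresh tissue barcodes.

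At 1000 UMIs the UMIs of the members had a variance of 0.96 to 1.33 times their mean over mSGO barcodes, where independent draws give 1. At 5000 UMIs the spread was wider for some. The variance of Hmga2 was 2.78, 2.41, 2.15 and 2.34 times its mean in the control, photon, proton and 11-day libraries, that of Sox9 1.69, 1.93, 1.79 and 1.40 times, and that of Alcam 2.05 times in 11-day mSGOs. Hmga2 was found in 36.7% of the deepest control barcodes, where its mean count alone would give 55.8%, so its UMIs were gathered in fewer barcodes than independent draws would fill. The mSGO libraries held no class of cells that should lack these genes, so the contribution of free RNA to the shares was not measured in them. In fresh tissue, Sox9 was found in 9 of the 19 barcodes with epithelial markers only (47.4%, median 8184 UMIs) and in 2 of the 63 with endothelial markers (3.17%, median 3552 UMIs).

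**Figure D3:**
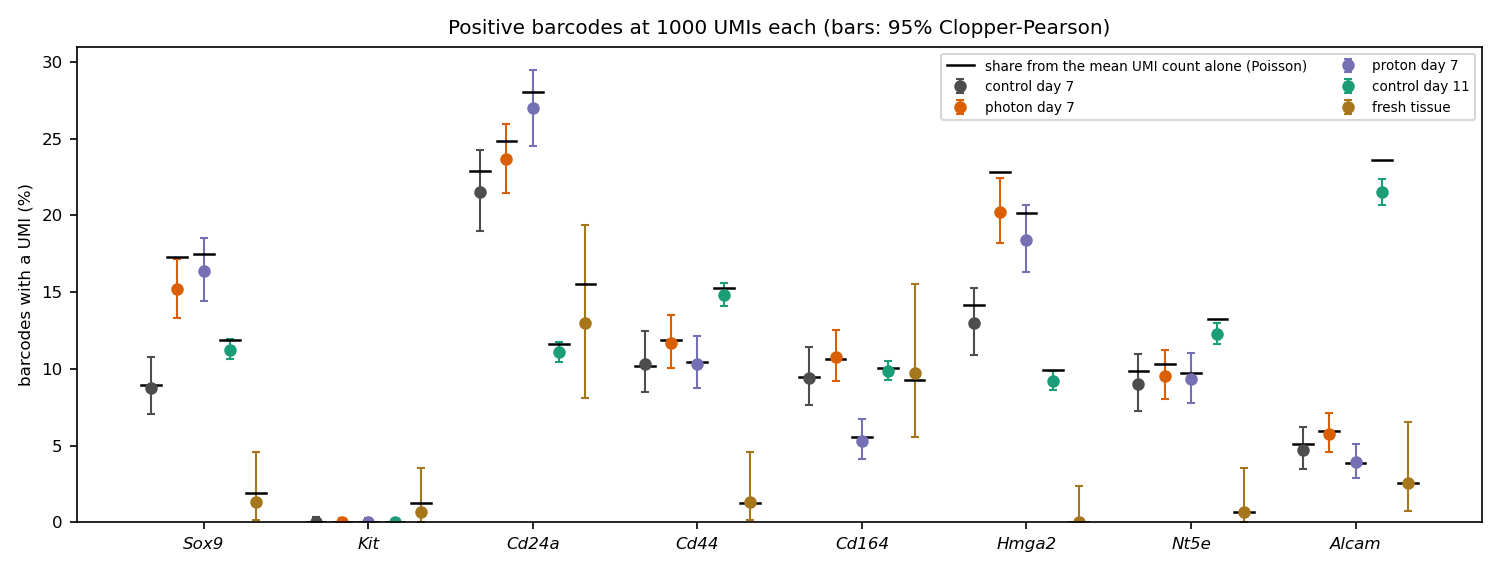
Share of barcodes with a UMI of each gene after thinning to 1000 UMIs (points, measured share by library in percent, bars, 95% Clopper-Pearson intervals, black lines, the share that the mean UMI count alone would give). Sox9 was found in 8.78% of control barcodes and in 15.2% and 16.4% of the photon and proton barcodes, and Alcam was found in 21.5% of 11-day barcodes.

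Shares were also read in barcodes split by marker genes, a marker set being present where at least 2 of the 1000 UMIs left after thinning belonged to it. Basal duct markers were present in nearly all barcodes, and cycling markers in 64 of 957 control barcodes, so neither split gives a comparison apart from that of the whole library. Among barcodes with cornifying squamous markers (301 control, 366 photon and 261 proton), Hmga2 was found in 8.64% (5.72 to 12.4) of the control, 15.8% (12.3 to 20.0) after photons and 17.6% (13.2 to 22.8) after protons. Sox9 was found in 9.30% (6.27 to 13.2), 14.5% (11.0 to 18.5) and 21.5% (16.6 to 26.9) of these. Among the 186, 329 and 245 barcodes without luminal duct markers, Sox9 was found in 7.53% (4.18 to 12.3), 17.6% (13.7 to 22.2) and 17.6% (13.0 to 22.9), and Hmga2 in 15.1% (10.2 to 21.0), 17.3% (13.4 to 21.9) and 20.8% (15.9 to 26.4). For Hmga2 without luminal markers, and for Sox9 and Hmga2 with cornifying markers after photons, the interval overlapped that of the control.

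Within a library, 16 splits by a marker set gave 112 contrasts for the members, of which 6 (5.36%) had intervals that did not overlap, against 4.42% over all genes of like detection. After photons, Nt5e was found in 10.8% of barcodes with luminal duct markers and 5.47% of those without, and Cd24a in 30.9% with cornifying markers and 21.1% without. In 11-day mSGOs, Sox9 was found in 11.5% of barcodes with basal duct markers and 7.23% without, whereas Cd164 was found in 9.62% with and 13.5% without. Cd24a was found in 12.2% of 11-day barcodes with luminal markers and 8.81% without. Nt5e was found in 1 of 74 barcodes with cycling markers (1.35%, 0.0342 to 7.30) and 12.4% of those without. These are the 6 contrasts, and barcodes of 1 library are not replicates.

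Whether the markers fall in the same barcodes was measured by counting barcodes positive for both members of each of the 28 pairs at 1000 UMIs and dividing by the number expected if the genes were independent. A pair needed at least 5 expected barcodes, which 17, 21, 19 and 21 pairs reached in the control, photon, proton and 11-day libraries. No pair was past 1.5 times independence in the control, photon, proton or 11-day library, where 1.49%, 1.27%, 1.3% and 0.00219% of all gene pairs with members' range of detection were. In the photon library 1 pair was below 1/1.5 of independence, and in the other libraries none, against 0.942% of all gene pairs in the control, 1.01% after photons, 0.942% after protons and 0.00646% in 11-day mSGOs. The pair below it was Cd24a with Cd44, seen together in 25 photon barcodes against 38.8 expected (ratio 0.64, 0.42 to 0.95). It belonged to the single draw of UMIs, since over all draws the lowest ratio of any photon pair was 0.80, and at 2000 UMIs it was 0.78.

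The median ratio over tested pairs was 0.97 in the control, 1.05 after photons, 1.04 after protons and 1.05 in 11-day mSGOs. For all gene pairs of like detection the median ratio was 1.01 in the control. The highest ratio in each library was 1.44 for Sox9 with Cd24a in the control (26 barcodes against 18.1), 1.28 for Hmga2 with Alcam after photons (21 against 16.4, interval 0.79 to 1.95), 1.62 for Cd44 with Nt5e after protons (20 against 12.3, interval 0.995 to 2.50), and 1.17 for Cd24a with Alcam in 11-day mSGOs (258 against 220.7, interval 1.03 to 1.32). Over all draws of UMIs the highest ratio of any pair was 1.35, 1.34, 1.24 and 1.17 in these libraries, so 1.62 belonged to the single draw. Cd24a with Alcam in 11-day mSGOs is the best counted of these pairs. Its interval left out independence, and it lay above 1.10, the 90th percentile of all gene pairs in that library. It was picked as the highest of 21 pairs, so neither value sets it apart. At 5000 UMIs the highest ratio of any 11-day pair was 1.09.

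At 5000 UMIs per barcode, a depth added after the data had been seen, 575, 671, 706 and 1122 barcodes remained and 21 pairs could be measured in each mSGO library. Their ratios ran from 0.89 to 1.25 in the control, 0.90 to 1.18 after photons, 0.87 to 1.11 after protons and 0.90 to 1.09 in 11-day mSGOs. At this depth 96.5%, 98.1%, 98.7% and 99.0% of barcodes held a UMI of at least 1 member. The marker combination Sox9, Cd24a and Cd164 was found together in 66 control barcodes against 52.7 expected (ratio 1.25, 0.98 to 1.57), 107 against 95.1 after photons, 99 against 95.4 after protons and 80 against 82.5 in 11-day mSGOs. The combination of Cd44 with Itgb1, an integrin of basal cells, and Trp63, a basal cell transcription factor, was found in 67 control barcodes against 57.3 expected, and in 220 against 224 in 11-day mSGOs. Both combinations thus occurred at close to the number that the single shares gave.

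At 1000 UMIs no member was found in 45.8% of control barcodes, 35.0% after photons, 37.7% after protons and 38.4% in 11-day mSGOs, where independence gave 43.9%, 34.7%, 36.8% and 37.8%. At least 2 members were found in 19.6%, 26.0%, 23.0% and 22.5%.

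Members were also paired with 8 genes of duct and dividing cells, and 8 of 199 tested pairs (4.02%) had an interval that left out independence in either direction, against 2.2% of such pairs over all genes of like detection. Hmga2 with Itgb1 had a ratio of 1.25 (0.92 to 1.66) in the control, 1.25 (1.03 to 1.5) after photons, 1.44 (1.18 to 1.75) after protons and 1.08 (0.97 to 1.19) in 11-day mSGOs, so the intervals of the 7-day libraries overlapped. The other 6 pairs were in 11-day mSGOs. Cd24a had ratios of 1.16 (1.01 to 1.33) and 1.09 (1.01 to 1.18) with the luminal keratins Krt8 and Krt18 and 0.93 (0.86 to 1.00) with the basal keratin Krt14, but 1.02 (0.94 to 1.10) with the basal keratin Krt5. Sox9 had a ratio of 1.10 (1.03 to 1.18) with Krt14 and 1.02 (0.94 to 1.10) with Krt5. Cd164 had 0.89 (0.82 to 0.97) with Krt14, 0.94 (0.86 to 1.02) with Krt5 and 1.10 (1.01 to 1.19) with Krt18.

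**Figure D4:**
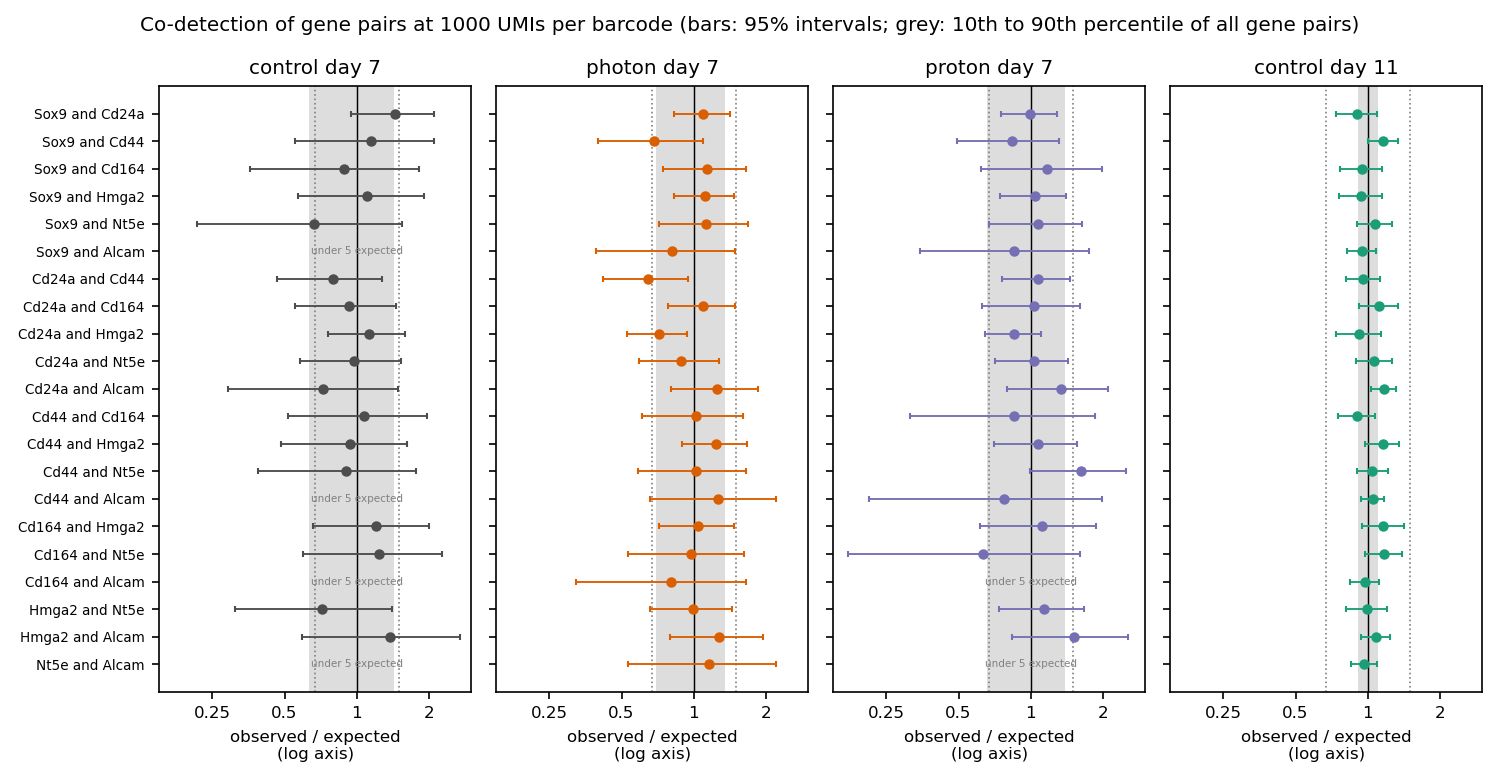
Barcodes positive for both genes of a pair divided by the number expected under independence, on a log axis, for 21 pairs in the 4 mSGO libraries at 1000 UMIs per barcode (bars, 95% intervals, grey band, middle range of all gene pairs, dotted lines, 1.5 times either way). The Cd24a and Cd44 pair in the photon library, at 0.64, lay beyond a dotted line with an interval short of 1.

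To describe the markers with longer culture, 11-day mSGOs were set against the 7-day control. These libraries also differed in counting software and gene list, whose part in the ratios was not tested. The median ratio of all 11996 genes was 0.82, so each value is also given relative to that median. Alcam was higher by 2.49 on the log2 scale, or 1.67 relative to the median, and Cd24a was lower, at -1.07 or -1.89 relative to it. Cd44 stood at 0.73 (relative -0.09), Nt5e at 0.60 (relative -0.21), Sox9 at 0.06 (relative -0.76), Cd164 at 0.10 (relative -0.72) and Hmga2 at -0.44 (relative -1.26). On CPM, 3 members (Cd44, Nt5e and Alcam) were past 1.5-fold upward, where 58.9% of genes were, and 1 (Cd24a) downward, where 8.93% were. Relative to the median, 1 member (Alcam) was past it upward against 29% of genes and 4 (Sox9, Cd24a, Cd164 and Hmga2) downward against 25.5%. Alcam and Cd24a thus held their direction on both scales, whereas Cd44 and Nt5e did not. Nt5e was short of 1.5-fold with barcodes thinned to 1000 UMIs or with 5 CPM added in place of 1. With at least 2500 genes per barcode Cd24a was no longer past 1.5-fold, and Cd44 and Alcam were past it upward, as were 46.9% of genes.

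Kit had 2 UMIs in 11-day mSGOs and 0 in the control, both under the floor, and no fold is given. With mitochondrial and ribosomal protein genes, Malat1 and Neat1 left out of the totals, and no centring, Alcam was past 1.5-fold upward, where 47.4% of genes were, and Cd24a and Hmga2 downward, where 13.3% were.

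Fresh tissue was set against 7-day control mSGOs to compare the markers in the gland and in culture. Of 7 members tested, 4 were past 1.5-fold downward (Cd24a at -0.70, Cd44 at -1.78, Nt5e at -4.66 and Hmga2), where 28.5% of 7712 genes were, and none upward, where 23.6% were. Hmga2 had 0 UMIs in fresh tissue and was at least 40.0-fold lower against the floor. Sox9 (-0.48), Cd164 (0.28) and Alcam (-0.18) did not pass, and the median of all genes was -0.10. With mitochondrial and ribosomal protein genes, Malat1 and Neat1 left out of the totals the median was -0.59, and Sox9 and Alcam were also past 1.5-fold downward, where 44.5% of genes were. Thinned to 1000 UMIs, Sox9 was past it downward too, where 38.1% were. At a Malat1 limit of 2%, Cd24a was no longer past it and Alcam was past it upward, where 22.3% were. Kit did not enter the count because it had fewer than 50 UMIs over both libraries.

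The fresh tissue levels depended on which barcodes were read. In the 19 barcodes with epithelial markers and no immune, endothelial or other non-epithelial markers, Sox9 stood at 194 CPM (32 UMIs), Kit at 30.3, Cd24a at 152, Cd44 at 66.7, Cd164 at 242 and Alcam at 103. In the 63 barcodes with endothelial markers the levels were 16.7 for Sox9, 0 for Kit, 351 (280 to 435) for Cd24a, 8.37 for Cd44, 79.5 for Cd164 and 8.37 for Alcam. Sox9, Cd164 and Alcam were thus higher where epithelial markers stood alone than where endothelial markers were present, and Cd24a was lower. Cd24a was read in 32 of the 63 endothelial barcodes (50.8%). In the 73 barcodes with immune markers, Sox9 stood at 70.0 CPM, Kit at 35.0, Cd24a at 103, Cd164 at 88.6 and Alcam at 39.7. The sets overlapped, with 15 barcodes carrying immune and endothelial markers and 20 carrying epithelial and immune markers. Hmga2 was at 0 in each set. Against 7-day mSGOs, the epithelial barcodes gave a Sox9 ratio of 0.76 and an Alcam ratio of 1.03, opposite in sign to those of the whole library. In these barcodes Sox9, Cd164 and Alcam were past 1.5-fold upward, where 5.93% of genes were, Cd24a, Hmga2 and Nt5e downward, where 26.1% were, and Cd44 was past it in neither direction. With at least 2500 genes per barcode, which left at most 26 tissue barcodes, Sox9, Cd164 and Alcam were past it upward against 11.4% of genes. Cd44, Hmga2 and Nt5e were past it downward against 18.6%.

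**Figure D5:**
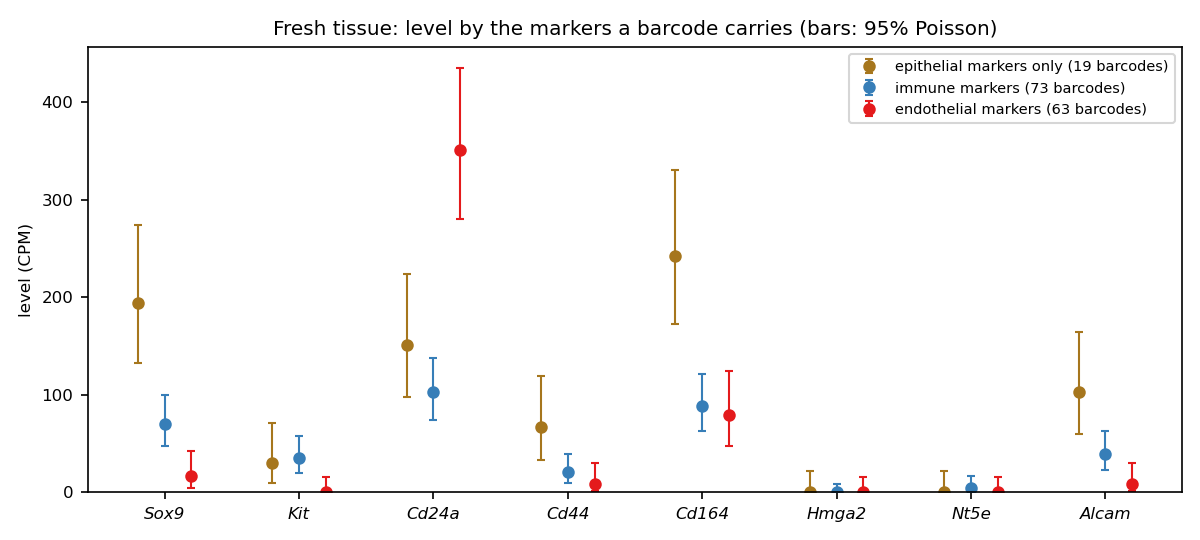
Level of each gene in CPM in fresh tissue barcodes grouped by the markers they carried (points, CPM, bars, 95% Poisson intervals, sets of 19, 73 and 63 barcodes). Sox9 stood at 194 CPM in barcodes with epithelial markers only and at 16.7 CPM in those with endothelial markers, and Cd24a at 152 and 351 CPM.

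At full depth, 4 pairs could be measured in fresh tissue. Sox9 with Cd24a occurred in 14 barcodes against 6.15 expected (ratio 2.27, 1.27 to 3.70) and Cd24a with Cd164 in 24 against 14.4 (ratio 1.67), both past 1.5 times independence, as were 7.14% of all gene pairs of like detection. Cd24a with Cd44 had a ratio of 1.10 (0.41 to 2.33) and Cd24a with Alcam 1.2 (0.49 to 2.42). Depth was not equal between these barcodes, and its part in the ratios was not tested.

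The choice of barcodes by their Malat1 share bore on the levels. Within the control library, barcodes at or above the 1% limit were compared with the other kept barcodes. Hmga2 was higher by 1.32, Nt5e by 1.23, Alcam by 1.07, Sox9 by 0.92 and Cd164 by 0.59 on the log2 scale, while Cd24a (0.48) and Cd44 (0.32) did not reach 1.5-fold. These 5 of 7 members compare with 37.6% of 8590 genes past the threshold upward, and none with 2.74% downward. The median ratio of all genes was 0.34 in the control. Split the same way, the photon and proton libraries each had 3 of 7 members past the threshold upward, where 24.8% and 22.3% of genes were. None was downward, where 1.45% and 2.24% were.

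Other genes of the same biology were taken from 2 lists. The first held 24 further stem and progenitor genes, such as integrins, basal keratins and Lgr5, of which 17 had enough UMIs for the irradiation comparisons. After photons and after protons 1 of the 17 was past 1.5-fold upward, near the 4.8% and 3.48% of all genes, none was downward, and none differed between photons and protons. The second held 29 ligands, partners and relatives of the members, of which 12 had enough UMIs. After photons, and likewise after protons, 2 of the 12 were past the threshold upward, against the same 4.8% and 3.48%, and 1 downward, against 2.37% and 3.26%. None differed between the beams.

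Krt15, a basal keratin, stood at 507, 1052 and 942 CPM in the control, photon and proton libraries (log2 ratios 1.05 and 0.89). Sox4, a transcription factor related to Sox9, stood at 166, 283 and 288 CPM (0.76 and 0.79). Ada, which breaks down the adenosine that NT5E makes, stood at 4.61, 12.0 and 8.93 CPM (1.21 and 0.82). Hmmr, another hyaluronan receptor that is also a gene of dividing cells, stood at 37.9, 13.9 and 15.8 CPM (-1.38 and -1.21), beside the fall in summed cycling markers given above, whose part in it was not tested.

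In 11-day mSGOs, 11 of 21 tested genes of the first list were past 1.5-fold upward and 5 downward on CPM, and 6 and 4 of 13 of the second, where 58.9% of all genes were upward and 8.93% downward. Fgfr2, a receptor for fibroblast growth factors, stood at 114 CPM against 10.5 in the control (3.32), and Lrig1, an inhibitor of EGF receptor signalling, at 24.4 against 2.23 (2.98). Lgr5, a receptor for R-spondins, stood at 6.08 CPM against 0 UMIs in the control and was at least 12.7-fold higher against the floor. At the other end were Krt6a, a keratin of activated epithelium, at 113 CPM against 1838 (-4.01), Hmmr at 6.90 against 37.9 (-2.30) and Ada at 0.788 against 4.61 (-1.65). In fresh tissue, 2 of 17 tested genes of the first list were past the threshold upward and 12 downward, and 4 and 7 of 13 of the second, where 23.6% of all genes were upward and 28.5% downward.

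Genes most alike to each member in 11-day mSGOs were ranked by their share in member-positive over member-negative barcodes, among genes read in at least 10% of the positive barcodes. Members needed at least 100 positive barcodes. The leading genes were Brd8 for Sox9, Tm2d1 for Cd24a (ratio 1.41), Man1a for Cd44, Il6st for Cd164, Pdpn for Hmga2 (ratio 1.48), Prag1 for Nt5e and Tex15 for Alcam. None of these 7 genes had a ratio above 1 in all 3 seven-day libraries, and Tm2d1 was below 1 in each of them (0.46, 0.50 and 0.46 in the control, photon and proton libraries). Among the 3 highest ranked genes of each member, only Ppp4r3a for Sox9 was above 1 in every 7-day library (1.18, 1.10 and 1.10). The genes were chosen for their 11-day ratios, which are given as a description of 9236 barcodes of 1 library.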

How the data were processed

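For each library the authors deposited whole-number counts of UMIs per gene and barcode from 10x Genomics 3′ libraries. The study's methods name GRCm39, and the submitters' processing notes mm10 and Cell Ranger 5. The file headers name no build, but software version 7.0.0 for the 11-day library and 3.0.1 for the 7-day and tissue libraries. Coordinates therefore give a gene's place in GENCODE vM39 (GRCm39) and promoters come from RefSeq (GRCm38.p6), neither being taken as the build used for counting. The members and gene lists were chosen with earlier results of these data known.

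Barcodes with at least 200 genes and at most 5% mitochondrial UMIs were kept. The 2500 detected genes named in the methods would have kept 199, 249, 219, 848 and 26 barcodes before doublet removal and the Malat1 limit. With both applied, as in the alternative that was run, 161, 229, 205 and 654 mSGO barcodes remained. Doublets were scored as by Scrublet (2000 variable genes, 30 components, 2 artificial doublets per barcode) and the highest scores removed at 0.8% per 1000 barcodes, which took 378, 2674, 2559, 855 and 16 barcodes. Fold changes were log2 ratios of CPM over the 30406 shared genes with 1 CPM added, for genes with at least 50 UMIs over both libraries. Intervals at 95% were exact Poisson for levels, exact conditional binomial for ratios and Clopper-Pearson for shares, and none cover variation between libraries. No p-value was computed. A gene at 0 was set to a floor of 3 counts per library. Marker sets took barcodes with at least 2 UMIs of the list. Further genes were named where past 1.5-fold the same way after photons and protons, or among the 3 highest and 3 lowest in 11-day mSGOs. The code was tested on simulated data. Python 3.11.15, numpy 2.4.6, scipy 1.17.1, pandas 2.3.3, scikit-learn 1.9.0 and matplotlib 3.10.9 were used. Alternatives covered depth, filters, pseudocount, centring, doublets and the Malat1 limit.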

Additional observations from a re-analysis of the deposited data

Results flagged for a closer look

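Cd164 was the member whose ratio to the control had opposite signs in the irradiated libraries, at 0.04 on the log2 scale after photons (0.036 to more digits) and -0.16 after protons. With 1 library per group the difference between the beams was not tested. Over 16 settings the photon ratio ran from -0.16 to 0.26 and the proton ratio from -0.78 to 0.15.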

How the results depend on the processing

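Of 147 combinations of a count and a setting, 135 gave a count within 1.5 times the reported one, which does not say that the same members were past the threshold. Against 4 in fresh tissue, for example, the settings gave 4 to 6. The photon calls (Sox9 and Hmga2) and the proton call for Sox9 were kept in every setting run. With barcodes thinned to 1000 UMIs, members past 1.5-fold numbered 2 after protons (Sox9, and Cd164 downward) against 1. Between protons and photons they numbered 2 (Cd164 and Alcam) against 0. Cd164 rests on the single draw described above. For Alcam the shares over all draws were 5.25% after photons and 4.20% after protons, against 5.77% and 3.92% in that draw. With at least 2500 genes per barcode, 2 members passed at 11 days (Cd44 and Alcam, not Cd24a) against 4, and 2 against 5 between control barcodes split by Malat1, where centring on the median gave 3. Co-detected pairs past 1.5 times independence numbered 1 against 0 in the control with all kept barcodes (Cd44 with Alcam) or with no mitochondrial limit (Sox9 with Cd24a), and 1 against 0 after protons with a Malat1 share of at least 2% or without shared barcode sequences (Cd44 with Nt5e). The 2 members with separate positive shares became 0 at 500 UMIs, 1 (Sox9) at 2000 UMIs, 0 with at least 2500 genes and 3 (Cd24a also) with all kept barcodes. The cause of these moves was not tested.

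Centring at 11 days turned the sign for Sox9 (-0.76), Cd44 (-0.089), Cd164 (-0.72) and Nt5e (-0.21). In fresh tissue Alcam turned to 0.67 at a Malat1 share of at least 2%, Sox9 to 0.76 and Alcam to 1.19 with at least 2500 genes, and Sox9 to 0.76 and Alcam to 1.03 in barcodes with epithelial markers only, a setting chosen after the data had been seen. With all kept tissue barcodes 6 of 7 members were past 1.5-fold downward, as were 71.2% of all genes. No paired analysis was possible because each group held 1 library. Fresh tissue values rest on 155 barcodes, in which 1 molecule is worth more than in any mSGO library.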
